A study of Mus musculus with 7 samples.

Results

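The cadherin superfamily was examined for where Argonaute, the protein that carries microRNAs, touched its RNAs in neonatal mouse retina. Members were the protein-coding genes of GENCODE mouse release M21 (mm10) whose symbol starts with Cdh or Fat and a digit, or with Pcdh, Celsr or Dchs. The rule gave 101 of 22028 protein-coding gene models, with 100 symbols because 2 gene models carry the name Pcdha11. Of these, 44 are separate genes and 57 belong to the Pcdha, Pcdhb and Pcdhg clusters on chromosome 18. In all, 86 of the 14054 crosslink positions of the table lay on the same strand within a member, and 5 of the 394 distinct miR-216 sites did.

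The positions come from PAR-CLIP, in which cells take up 4-thiouridine, ultraviolet light links it to a protein in contact with the RNA, and the protein is pulled down. There were 5 Argonaute libraries (antibody 2A8) and 2 IgG control libraries, each from 6 pooled CD-1 retinas taken at postnatal day 0 and kept 24 h as explants in 0.1 mM 4-thiouridine. All 7 libraries share this strain, age, culture and irradiation, and no allele or drug differs between them. The deposited table pools the Argonaute libraries and gives each position the number of libraries that contain it, from 2 to 5, here called its recurrence. Values of single libraries and of the IgG controls were not analysed here, the read depth is unknown, and nothing could be tested against the spread between libraries. Shares carry exact 95% Clopper-Pearson intervals, which cover counting error only, and positions of the same gene are not independent. In whole retina, fewer cells of a type and less RNA per cell cannot be told apart, and a member without a position is not shown to be unbound. The retina label was met by the retina markers: 17 of 20 neonatal retina genes had a position, where 22.1% of all protein-coding genes did. They were led by Rorb with 105, Neurod1 with 24 and Onecut2 with 24. Of 16 markers of other ocular cells 2 had a position, Kdr with 5 and Pdgfra with 2. Beside the same 22.1%, that list is too short to show that such cells were absent.

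Cadherins are calcium-dependent adhesion proteins of the cell surface. Classical cadherins join like cells through adherens junctions and hold the actin skeleton through catenins, and in the retina N-cadherin is needed for ordered layers. Protocadherins give neurons surface identities, and those of the alpha and gamma clusters are made by splicing a variable exon, which encodes the outer part of the protein, to shared 3′ exons. The Fat, Dchs and Celsr proteins are very large cadherins that act in planar cell polarity, and Fat3 is known in mouse retina for shaping the dendrites of amacrine cells. MicroRNAs guide Argonaute mainly by pairing their seed, bases 2 to 8, with spliced mRNA, most often in the 3′ UTR.

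Cadherin superfamily positions lay mostly in introns. Of the 86 positions, 49 were intronic (57%, 45.8 to 67.6), against 2471 of 13968 other positions (17.7%, 17.1 to 18.3), and introns held 17.9% of the whole table. The 3′ UTR held 26 member positions (30.2%, 20.8 to 41.1), against 52.3% (51.4 to 53.1) of other positions and 52.1% of the whole table. Coding sequence held 11 (12.8%, 6.56 to 21.7), against 20.9% of other positions. No member position lay in a 5′ UTR or in an exon of a noncoding transcript (0 of 86 each, with an exact upper limit of 4.2%), where other positions had 0.766% and 4.47%. Members are protein-coding by the rule, while the other positions include noncoding genes, so the noncoding shares are not like for like. All 37 exonic positions fell on T, the base that 4-thiouridine replaces. The method links at that base, so this is a check of coordinates and not a result about the family.

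**Figure D1:**
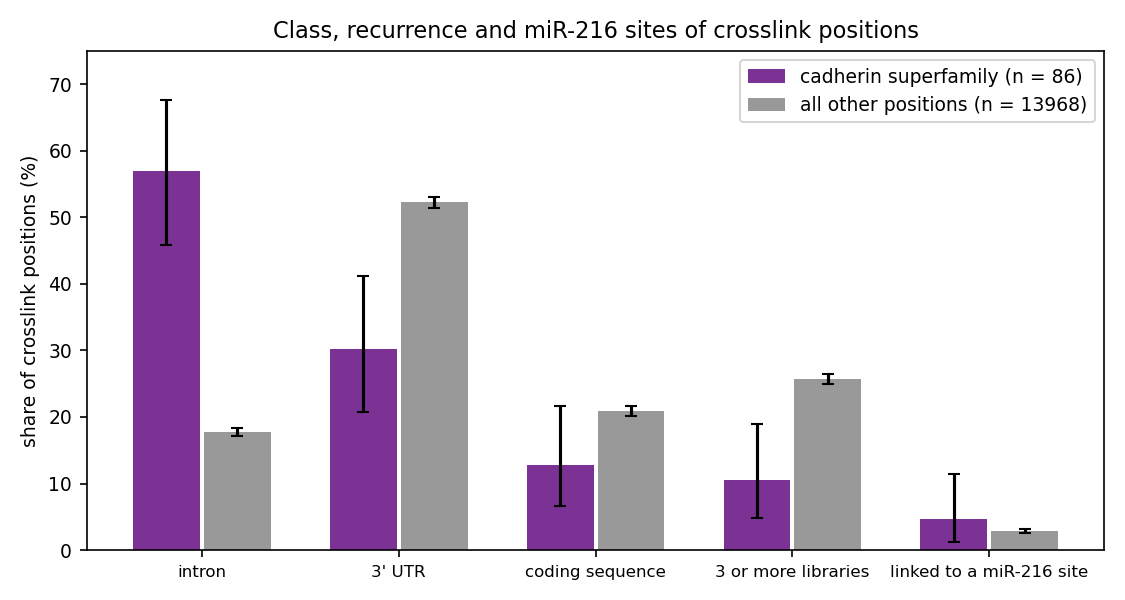
Share of crosslink positions (%) in introns, in 3′ UTRs, in coding sequence, in 3 or more libraries and linked to a miR-216 site, for cadherin superfamily genes (purple, 86 positions) and all other positions (grey, 13968 positions); error bars are exact 95% binomial intervals. The intronic bar stands at 57% in the cadherin superfamily and 17.7% elsewhere, and the intervals do not overlap.

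Member positions were also found in few libraries. Only 9 were in 3 or more libraries (10.5%, 4.9 to 18.9), against 25.7% (25 to 26.4) of other positions and 25.6% of the whole table. Of these 9, 6 were in 3 libraries and 3 in 4, where 9.81% of the whole table was in 4 or more, and none was in all 5 (0 of 86, with an exact upper limit of 4.2%, against 3.49% of other positions). Of those 9, 3 were intronic (33.3%, 7.49 to 70.1) and 6 lay in 3′ UTRs, so all but 3 of the 49 intronic positions were in 2 libraries. Of the 3589 other positions in 3 or more libraries, 223 were intronic and 2403 lay in 3′ UTRs. The shares were also read within each class. Among intronic positions, 3 of 49 (6.12%, 1.28 to 16.9) were in 3 or more libraries, against 9.02% (7.92 to 10.2) of other intronic positions. Among 3′ UTR positions, 6 of 26 (23.1%, 8.97 to 43.6) were, against 32.9% (31.8 to 34) elsewhere. Among coding positions none of 11 was (exact upper limit 28.5%), against 21.8% (20.3 to 23.3) elsewhere. In each of these classes the intervals overlapped.

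Gene length moved with the intronic share. In members of 200 kb or more outside the clusters, 42 of 54 positions were intronic (77.8%, 64.4 to 88), against 59.3% (57.1 to 61.4) in other protein-coding genes of 200 kb or more. Cdh2 alone gave 13 of the 54, and 12 of its positions were intronic. In shorter members 2 of 20 were intronic (10%, 1.23 to 31.7), against 11.2% (10.7 to 11.8). The members with an intronic position had a median length of 436 kb, and those with exonic positions only had 57.2 kb. The part of length in the intronic share was not tested beyond this split, which does not match length. At 200 kb or more the median length was 524 kb in separate members and 327 kb in other protein-coding genes. Under 200 kb it was 58.5 kb and 15.9 kb. At least 1 position was present in 19 of the 44 separate members (43.2%), where 22.1% of all protein-coding genes had one. At 200 kb or more the shares were 57.1% (8 of 14) and 51.8% (506 of 977), and under 200 kb they were 36.7% (11 of 30) and 20.6%.

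**Figure D2:**
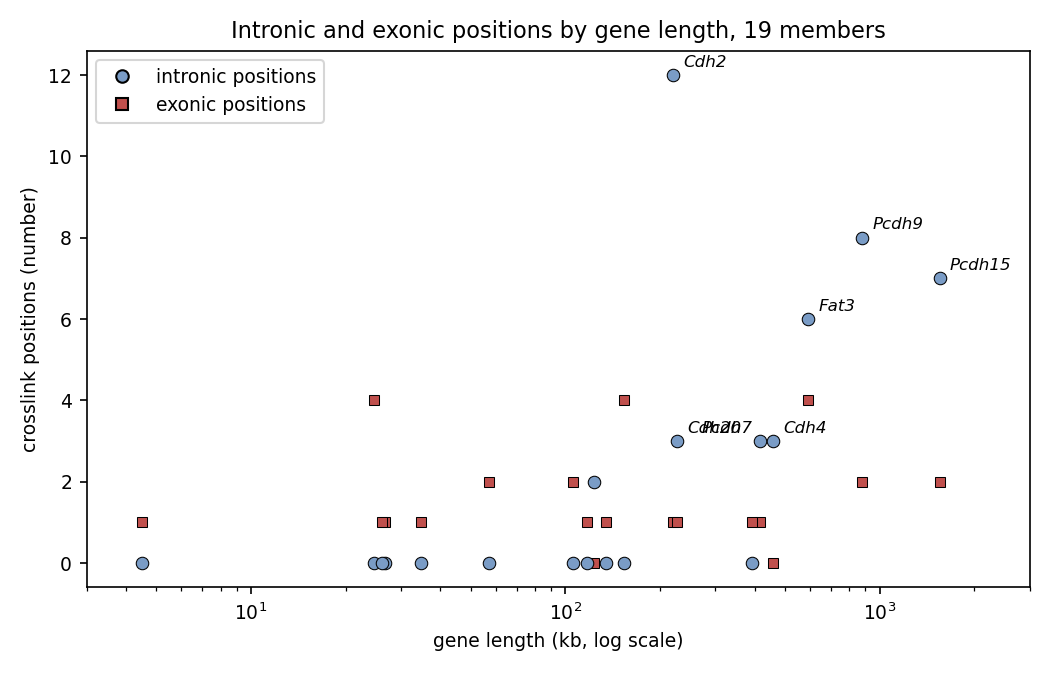
Number of intronic (blue circles) and exonic (red squares) crosslink positions against gene length (kb, log scale) for the 19 members outside the clusters that had a position; each gene gives 1 circle and 1 square. Genes with 3 or more intronic positions are named; all are longer than 200 kb, and Cdh2 lies highest with 12.

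A few genes held much of the family. Cdh2, Fat3, Pcdh9 and Pcdh15 together had 42 positions (48.8%), of which 33 were intronic. By subfamily, 2 of 5 type I classical cadherins, 4 of 13 type II, 3 of 6 Fat and Dchs genes, 3 of 3 Celsr genes and 7 of 12 unclustered protocadherins had a position, and none of the 5 other cadherins (Cdh13, Cdh16, Cdh17, Cdh23 and Cdh26) had. The other separate members without a position were Cdh1, Cdh3, Cdh5, Cdh6, Cdh7, Cdh9, Cdh10, Cdh12, Cdh15, Cdh18, Cdh19, Cdh24, Dchs2, Fat2, Fat4, Pcdh11x, Pcdh12, Pcdh17, Pcdh18 and Pcdh20.

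**Figure D3:**
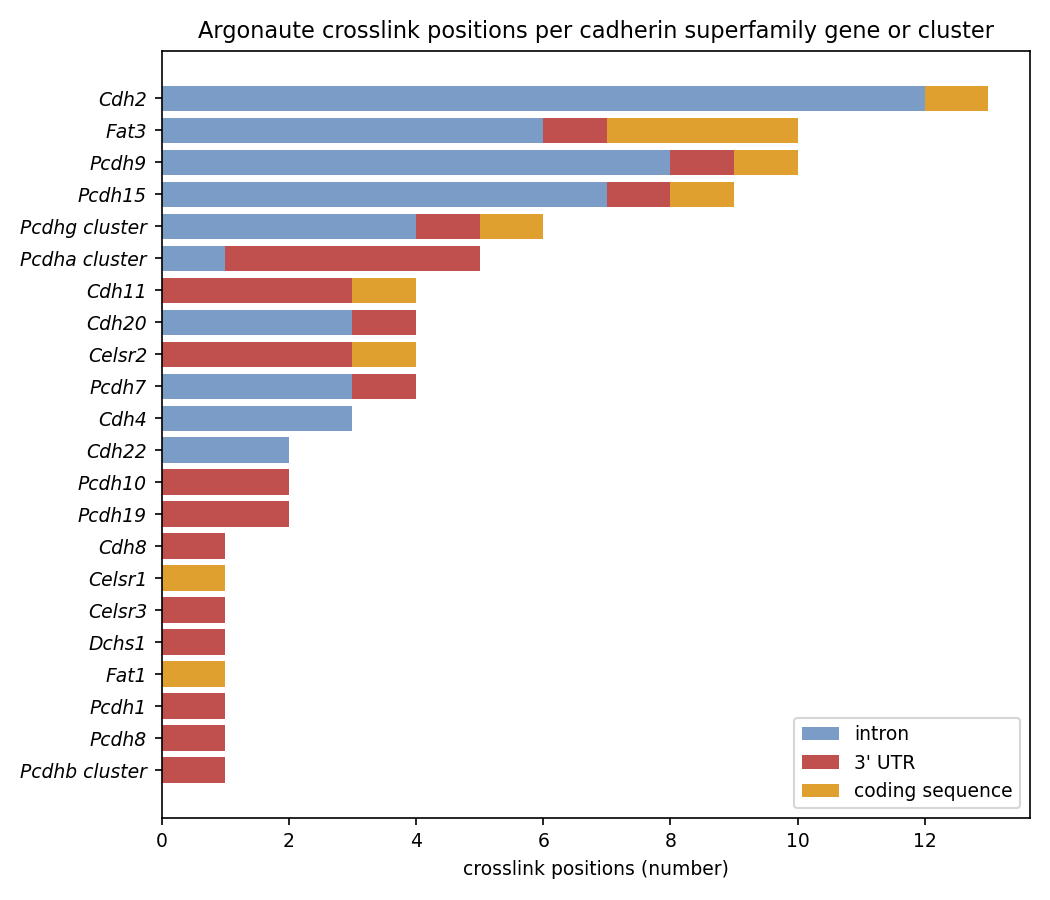
Number of crosslink positions in each member gene or protocadherin cluster that had any, split into introns (blue), 3′ UTR (red) and coding sequence (orange). Cdh2 has the longest bar with 13 positions, 12 of them intronic, while Cdh11, Celsr2, Pcdh10 and Pcdh19 have exonic positions only.

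Among the type I classical cadherins, Cdh2 (ENSMUSG00000024304.14, chromosome 18, 16588877 to 16809246, minus strand), which encodes N-cadherin, had the most positions of any member, with 13. All 13 were found in 2 libraries. There were 62 protein-coding genes with more positions and 13 with more intronic ones. The 12 intronic positions all lay in intron 2 of 15, a 124.0 kb intron that makes up 57.5% of the gene's intron length, and the other position, at 16629671, lay in coding sequence in exon 10 of 16.

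The intron 2 positions of Cdh2 did not form a pile. They ran from 16676536 to 16770391, a span of 93.9 kb, with a smallest gap of 1771 nt, a median gap of 5980 nt and a largest gap of 19750 nt, or 9.68 positions per 100 kb. The position nearest the upstream exon lay 4117 nt from it, and 8 of the 12 lay before the midpoint of the intron. Of the 1683 introns with a position, 127 had 3 or more, with a median of 3.06 per 100 kb, and 9 had more positions than intron 2 of Cdh2. No Cdh2 position lay in its 3′ UTR. By number of positions (log scale), intronic share and gene length (log scale), each divided by its SD over genes with 3 or more positions, the genes outside the family most like Cdh2 were Dach1 (12 positions, 10 intronic, distance 0.58), Hs3st4 (13, all intronic, 0.59) and Tmtc2 (12, 10 intronic, 0.59), among 1668 genes compared.

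Cdh4, which encodes R-cadherin, first described in retina, had 3 positions, all in intron 2 of 15, which is 335.4 kb long and 74.5% of its intron length. They lay at 179540605, 179618113 and 179716280 on chromosome 2, each in 2 libraries, and were at least 77508 nt apart.

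The type II classical cadherins had 11 positions, 5 intronic, 5 in 3′ UTRs and 1 in coding sequence. Cdh11 (ENSMUSG00000031673.6, chromosome 8, 102632095 to 102785642, minus strand), which encodes OB-cadherin, had 4 positions and none was intronic. Its 3′ UTR position at 102634271, 43 nt into a 2219 nt UTR, was in 4 libraries and was the most recurrent exonic position of the family. The positions at 102634297 and 102634146, 17 and 168 nt into the UTR, were in 2 libraries each, as was that at 102647536 in exon 11 of 13. All 3 UTR positions of Cdh11 thus lay close behind its stop codon. The sequences around those at 102634271 and 102634146 are shown because the position at 102634271 is the most recurrent and the other holds a microRNA match. Each shows 30 nt of the transcript, 14 before and 15 after the crosslink, with the crosslinked T and any 7mer match in capitals.
Cdh11 chr8:102634256-102634285, minus strand: actgtgtctggcatTctcaagaatctagaa
Cdh11 chr8:102634131-102634160, minus strand: atcaaagtggaaaaTACTGTGAagtacctt
The position in 4 libraries had no match to any of the 29 microRNAs searched within 20 nt. The other had an 8mer match to miR-27a-3p, that is, a match to bases 2 to 8 followed by A, starting 1 nt after the crosslink.

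Cdh20 had 3 positions in intron 1 of 11 (165.1 kb) and 1 in its 3′ UTR at 104995324 on chromosome 1, all in 2 libraries. The UTR position lay 939 nt into a 1096 nt UTR, and the crosslinked T was the first base of an 8mer match to miR-26a-5p.
Cdh20 chr1:104995310-104995339, plus strand: tactgtagataaccTACTTGAacaaaatca
Cdh22 had intronic positions only, at 165205058 in intron 1 and 165115879 in intron 11 of 11 on chromosome 2. The position in intron 11, 261 nt from exon 11, was the nearest to an exon of the 44 intronic positions outside the clusters. Cdh8 had 1 position, in its 3′ UTR at 99029455 on chromosome 8, with no match.

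Of the Fat and Dchs cadherins, Fat3 (ENSMUSG00000074505.5, chromosome 9, 15910189 to 16501285, minus strand) had 10 positions: 6 intronic, 3 in coding sequence and 1 in the 3′ UTR. The 6 were spread evenly, 2 each, over introns 1, 2 and 3, the 3 longest of its 25 introns (122.8, 127.9 and 161.4 kb). The 3′ UTR position at 15911933, 3066 nt into a 4810 nt UTR, was in 3 libraries and the other 9 were in 2. It had a 7mer match to miR-16-5p starting 1 nt after the crosslink, which ran on into a match to miR-24-3p starting 6 nt after it. A coding position at 15998632 in exon 10 of 26 had an 8mer match to let-7a-5p starting 1 nt after it, while those at 16376758 and 16377518 in exon 2 had none. The windows with matches, together with that of Fat1, are shown since each places the crosslink beside a seed match.
Fat3 chr9:15911918-15911947, minus strand: cttctgagagtcttTTGCTGCTGAGCCtca
Fat3 chr9:15998617-15998646, minus strand: aattcaagataaaaTCTACCTCaggagtca
Fat1 chr8:45025584-45025613, plus strand: attgtaaatgactTTGCCAAagacaggttt
The Fat1 window is its only position, at 45025598 in coding sequence in exon 10 of 27, and holds an 8mer match to miR-182-5p starting 1 nt before the crosslink.

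Dchs1, a binding partner of Fat cadherins, had 1 position in 3 libraries, at 105753020 on chromosome 7, 438 nt into a 468 nt 3′ UTR. A 7mer match to miR-96-5p started 16 nt before the crosslink, so its first bases lie upstream of the printed window, and it is not in capitals.
Dchs1 chr7:105753005-105753034, minus strand: gccaattctcactcTggagccttaataaac

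The Celsr cadherins had 6 positions, all exonic, 4 in 3′ UTRs and 2 in coding sequence, and each of the 3 genes had at least 1. Celsr2 (ENSMUSG00000068740.13, chromosome 3, 108390851 to 108415552, minus strand) had 4. Its 3′ UTR positions at 108391037 and 108391002, 1594 and 1629 nt into a 1780 nt UTR, were in 3 and 2 libraries. A position at 108392727 lay in the 3′ UTR of a shorter transcript and was intronic when only GENCODE basic transcripts were used, and that at 108396072 lay in coding sequence in exon 24 of 34. None of the 4 had a match, and the window of the recurrent one is shown for that reason.
Celsr2 chr3:108391022-108391051, minus strand: tttttaactactgaTgacttgacttaaaaa
Celsr1 had 1 position, at 85900982 on chromosome 15 in coding sequence in exon 34 of 35, where the crosslinked T was the first base of an 8mer match to miR-181a-5p.
Celsr1 chr15:85900967-85900996, minus strand: caatggggtggccaTGAATGTacgcacagg
Celsr3 had 1 position, in its 3′ UTR at 108852355 on chromosome 9, with no match.

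Unclustered protocadherins had 29 positions, the most of any subfamily, with 18 in introns, 9 in 3′ UTRs and 2 in coding sequence. Pcdh9 (ENSMUSG00000055421.8, chromosome 14, 93013410 to 93890679, minus strand) had 10. Its 8 intronic positions all lay in intron 2 of 4, which is 325.1 kb and 37.3% of the intron length. Introns 3 (233.6 kb) and 4 (310.8 kb) had none, although intron 4 is nearly as long. Recurrence was 4 libraries at 93867414, 18283 nt after exon 2, and 2 libraries at the other 9. A coding position at 93888605 in exon 2 had a 7mer match to miR-9-5p starting 1 nt after the crosslink.

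Pcdh15 (ENSMUSG00000052613.16, chromosome 10, 73099342 to 74649737, plus strand), a component of hair cell tip links that is also found in photoreceptors, had 9 positions, each in 2 libraries. Its 7 intronic positions lay in 7 different introns, 6 of them introns 1, 2, 4, 9, 12 and 16 of the 34 of a 35-exon transcript and the other in an intron of a shorter upstream transcript. A coding position at 74230314 in exon 9 of 35 had an 8mer match to miR-96-5p, a microRNA of sensory organs, starting 1 nt after the crosslink. The windows of the coding positions in Pcdh9 and Pcdh15 are shown as the coding matches of the subfamily.
Pcdh9 chr14:93888590-93888619, minus strand: gcccataggaaataTACCAAAGgatctgaa
Pcdh15 chr10:74230300-74230329, plus strand: ctgccttgtgttctTGTGCCAAacacacgt

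Pcdh7 (ENSMUSG00000029108.14, chromosome 5, 57717967 to 58133230, plus strand) had 4 positions. The position at 57743973 in intron 1 of 2, 21695 nt after exon 1, was in 4 libraries, and those at 57801511 in intron 1, 57939388 in intron 2 and 58132109 in the 3′ UTR were in 2. With the Pcdh9 position in intron 2, it was the most recurrent intronic position of the family. Pcdh10 and Pcdh19 had 2 positions each, and Pcdh1 and Pcdh8 had 1 each, all in 3′ UTRs and in 2 libraries.

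**Figure D4:**
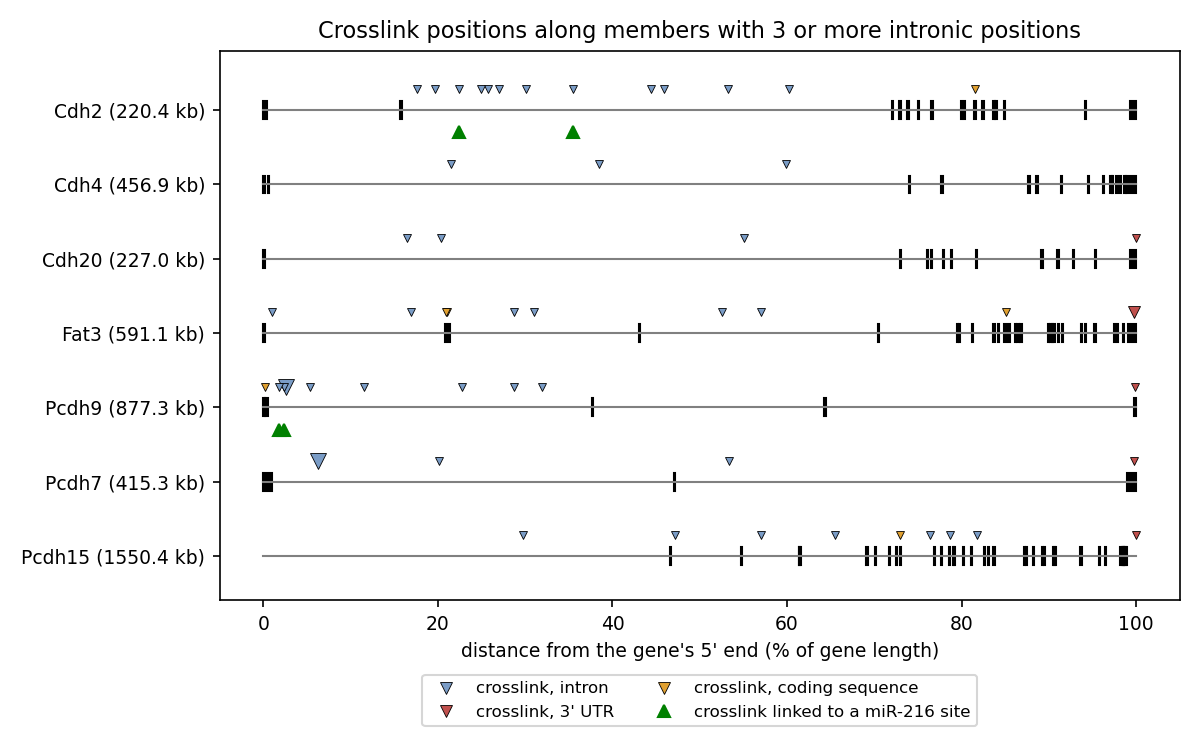
Crosslink positions (triangles pointing down, larger where found in more libraries) along the 7 members with 3 or more intronic positions outside the clusters, from the 5′ end of each gene (0%) to its 3′ end (100%); black boxes are exons of the transcript used, widened where needed to be seen, and green triangles mark crosslinks linked to a miR-216 site. The 12 intronic positions of Cdh2 fill intron 2, those of Pcdh9 lie in intron 2 of 4, and those of Pcdh15 are spread along the gene.

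Over the 44 intronic positions outside the clusters, 39 lay in introns 1 to 3 and 39 in introns longer than 100 kb. The distance to the nearest exon had a median of 36.7 kb and ran from 261 nt to 162 kb, and 1 was under 1 kb. These counts and distances are not set beside those of other intronic positions, so they are not shown to be particular to the family. For Pcdh7, whose transcript has only 2 introns, a place in introns 1 to 3 is also fixed in advance. Of the 44, 29 (65.9%, 50.1 to 79.5) lay before the midpoint of their intron, against 60.7% (58.8 to 62.7) of other intronic positions. The intervals overlapped, so a difference from the rest of the table was not shown. Intron 2 of Cdh2 gave 8 of the 29, and positions of the same gene are not independent.

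The 3′ UTR positions of unclustered protocadherins shared a short sequence. Of the 7-letter words that start 1 nt after an exonic crosslink, GTGCCTT was the most frequent in the whole table, at 337 positions. Within the family, with the word allowed to start up to 1 nt upstream or 3 nt downstream of the crosslink, GTGCCTT was found at 3 positions, in Pcdh8, Pcdh9 and Pcdh19, and its last 6 letters, TGCCTT, at 6 positions, adding Pcdh1, Pcdh7 and Pcdh15. These 6 were 6 of the 9 3′ UTR positions of unclustered protocadherins and 6 of the 26 of all members (23.1%, 8.97 to 43.6), against 6.45% (5.9 to 7.04) of 3′ UTR positions in other genes. For GTGCCTT the shares were 11.5% (2.45 to 30.2) and 3.52% (3.11 to 3.97), whose intervals overlapped. The word was picked after its counts were seen, only the transcript strand was searched, and the 7mers of the 29 microRNAs searched do not include it. Because miR-124-3p had no entry in the sequence table, its seed was not searched and the word was not compared with it. Windows of 5 of the genes are shown, as they carry the shared word, with the crosslinked T and TGCCTT in capitals.
Pcdh7 chr5:58132095-58132124, plus strand: taatatattaaaacTtTGCCTTctgtcaaa
Pcdh8 chr14:79767259-79767288, minus strand: ataaatatgcaagaTgTGCCTTaaaatgaa
Pcdh9 chr14:93014308-93014337, minus strand: aatatttaatgtgtTgTGCCTTcatgatgt
Pcdh15 chr10:74649217-74649246, plus strand: gttttattcattcaTTGCCTTatactatac
Pcdh19 chrX:133586673-133586702, minus strand: actaatctaattacTgTGCCTTctaaatgg

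The clustered protocadherins were read by exon, since a read in a shared 3′ exon cannot be given to a gene. The Pcdha cluster (chromosome 18, 36930184 to 37187661, plus strand) had 5 positions. Of these, 4 lay in the last shared exon, 37184946 to 37187657, which all 14 Pcdha gene models use, at 37186271, 37186434, 37186739 and 37186768. They lay 1015, 1178, 1483 and 1512 nt into the 2401 nt 3′ UTR and were in 2, 2, 3 and 3 libraries. All 4 had a match: an 8mer of miR-16-5p starting 1 nt after the crosslink at 37186271, a 7mer of miR-17-5p starting 1 nt after that at 37186434, and an 8mer of miR-181a-5p starting 1 nt after that at 37186768. The other, at 37186739, had a 7mer of miR-181a-5p starting 18 nt before it. The shared Pcdha 3′ UTR thus carried crosslinks beside seeds of 3 different microRNAs. The other Pcdha position, at 36965313, lay between variable exons, 2528 nt after that of Pcdha5.

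The Pcdhg cluster (chromosome 18, 37661793 to 37841873, plus strand), whose proteins act in self-avoidance of starburst amacrine cells, had 6 positions and a different layout. Only 1, at 37841747, lay in the last shared exon, 1618 nt into a 1744 nt 3′ UTR, in 2 libraries and with no match; it also lies in an exon of the Pcdhgb8 pseudogene. A position at 37726997 lay in the variable coding exon of Pcdhga8 and had an 8mer of miR-181a-5p starting 1 nt after the crosslink. The other 4 lay between variable exons, 1745, 1161, 1288 and 903 nt after those of Pcdhga5, Pcdhgb5, Pcdhga9 and Pcdhgb6, and the first of these, at 37698669, was in 3 libraries. Of the 22 Pcdhb genes, which have no shared exons, Pcdhb14 alone had a position, at 37453107 in its 3′ UTR, in 2 libraries. In all, 5 of the 12 cluster positions lay in shared 3′ exons. Clustered genes are close copies of each other, how reads with several matches were treated is not given in the sources used here, and the place of a position in a variable exon is uncertain to that extent.

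Seed matches to a list of 29 microRNAs were searched in 20 nt on either side of each exonic crosslink, on the transcript strand. Of the 37 exonic member positions, 15 had a 7mer match (40.5%, 24.8 to 57.9), against 34.2% (33.3 to 35.1) of other exonic positions and 34.2% of the whole table. A match whose start lay at most 1 nt upstream or 3 nt downstream of the crosslink was present at 12 (32.4%, 18 to 49.8), where the whole table had 24.9%. In coding sequence 6 of 11 member positions had such a match (54.5%, 23.4 to 83.3), against 21.7% (20.2 to 23.2) of other coding positions, and in 3′ UTRs 6 of 26 did (23.1%, 8.97 to 43.6), against 27.4% (26.3 to 28.4). Coding positions thus did not have fewer adjacent matches to these 29 microRNAs than 3′ UTR positions here, although 11 positions are few. GTGCCTT is not among the 7mers searched, so the 3′ UTR positions of Pcdh8, Pcdh9 and Pcdh19 that carry it count as unmatched. Since miR-124-3p is not among the 29 microRNAs, every share with a match leaves it out. The start 1 nt after the crosslink was the most frequent, with 9 of 16 matches in the family and 41.6% of matches at other positions.

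**Figure D5:**
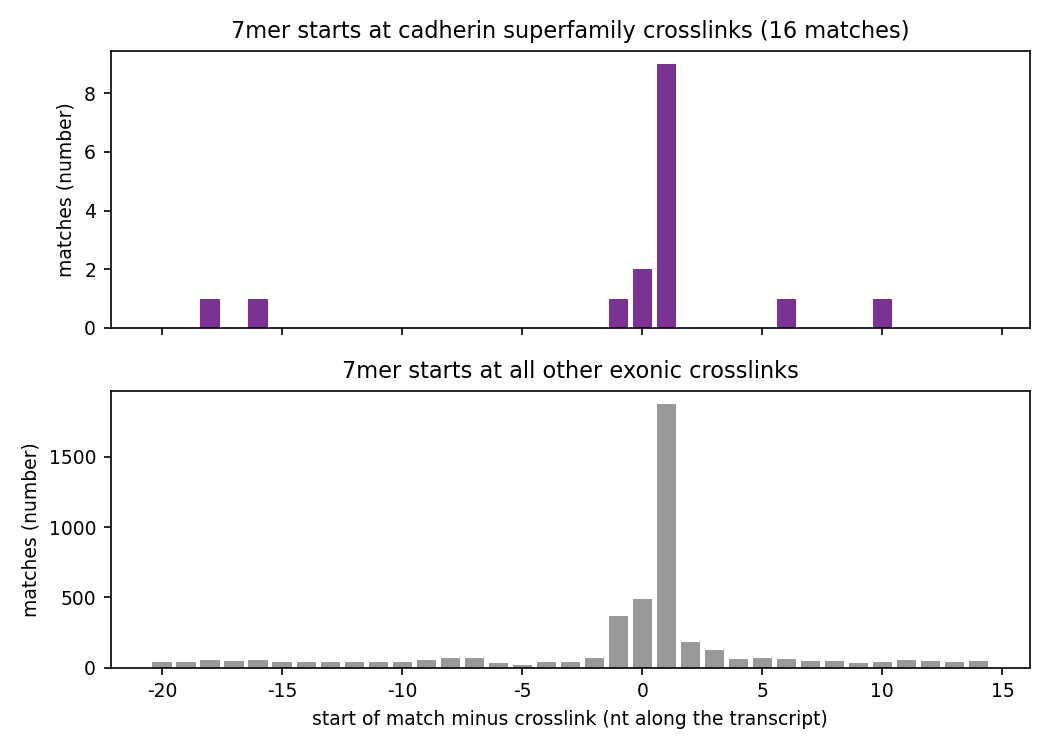
Number of 7mer matches by the distance of their first base from the crosslink (nt along the transcript) at exonic positions of the cadherin superfamily (top, 16 matches) and at all other exonic positions (bottom). Both have their highest bar 1 nt after the crosslink, with 9 matches in the family.

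The microRNAs with matches next to member crosslinks are given 5′ to 3′ with the seed in capitals, from RefSeq (GRCm38.p6), and miR-216a and miR-216b follow them as the microRNAs of the study.
let-7a-5p: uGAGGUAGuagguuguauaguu
miR-9-5p: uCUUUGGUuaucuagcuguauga
miR-16-5p: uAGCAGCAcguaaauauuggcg
miR-17-5p: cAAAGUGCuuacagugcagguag
miR-26a-5p: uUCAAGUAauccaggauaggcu
miR-27a-3p: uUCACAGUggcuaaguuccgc
miR-96-5p: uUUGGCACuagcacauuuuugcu
miR-181a-5p: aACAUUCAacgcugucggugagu
miR-182-5p: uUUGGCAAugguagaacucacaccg
miR-216a-5p: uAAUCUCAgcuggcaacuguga
miR-216b-5p: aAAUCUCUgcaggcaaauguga
Matches to miR-181a-5p were the most frequent in the family, at 4 positions in Celsr1, Pcdhga8 and the shared Pcdha exon, followed by miR-16-5p and miR-96-5p at 2 each. In the whole table miR-181a-5p matches were at 383 positions, second to miR-17-5p at 398, so its place in the family was near its place overall. No exonic member position had a 7mer of miR-216a-5p or miR-216b-5p, at 65 and 48 positions of the whole table.

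The series is about miR-216b in amacrine cell generation, so the deposited matches to miR-216a and miR-216b were examined in the family. There were 5 sites, in Cdh2 and Pcdh9, and all were intronic, in introns 2 of both genes, and linked to crosslinks in 2 libraries. They were linked to 4 of 86 member positions (4.65%, 1.28 to 11.5), against 2.91% (2.64 to 3.21) of other positions and 2.92% of the whole table. Among intronic positions the shares were 4 of 49 (8.16%, 2.27 to 19.6) in members and 2.75% (2.14 to 3.48) elsewhere, with 2.86% of all intronic positions, and the intervals overlapped. None of the 37 exonic member positions was linked (exact upper limit 9.49%), against 2.87% of other exonic positions.

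Cdh2 had 3 of the sites. The 6 nt site at 16731124 to 16731129, named for both microRNAs, started 1 nt after the crosslink at 16731130. The crosslink at 16759891 was flanked on either side, by an 8 nt miR-216b site at 16759892 to 16759899 that ended just before it and a 6 nt site for both microRNAs at 16759874 to 16759879 that started 12 nt after it. In Pcdh9, a 6 nt miR-216a site at 93874995 to 93875000 started 8 nt after the crosslink at 93875008, and a 6 nt miR-216b site at 93870395 to 93870400 started 13 nt after that at 93870413. These crosslinks lay 10689 nt (93875008) and 15284 nt (93870413) after exon 2. Of all genes, 5 had 3 or more sites, and Cdh2 was among them.

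Genes that work with cadherins were read from lists of partners, and the counts of genes stand beside the 22.1% of all protein-coding genes that had a position. Of 11 cadherin adaptors, 8 had positions, led by Ctnnd2 (delta-catenin) with 12, of which 9 were intronic, Ctnna2 (alpha-N-catenin) with 8, all intronic, and Ctnnb1 (beta-catenin) with 6, of which 3 were coding, 2 in the 3′ UTR and 1 intronic; no adaptor had a miR-216 site. Of 17 genes of the Hippo pathway and Fat signalling, 15 had positions, led by Lats1 and Tead1 with 5 each and Amotl2 with 4. These 15 genes had 26 of 32 positions in 3′ UTRs, and Fjx1, which encodes the mouse relative of the fly kinase four-jointed, and Stk4 each had a miR-216 site. Of 11 planar cell polarity partners of Celsr proteins, 5 had positions, led by Fzd3 with 5, 4 of them coding, and Vangl2 with 3. Of 11 genes linked to protocadherin promoters and cohesin or to signalling downstream of clustered protocadherins, 9 had positions, led by Nipbl with 7, Stag1 with 5 and Wapl with 4, and none had a miR-216 site.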

How the data were processed

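The authors deposited 2 pooled tables in BED format for mm10. Per the file headers, the score of the crosslink table is the number of Argonaute samples that contain a crosslink. The score of the miR-216 table has no header; each of its 404 entries had a crosslink of that score within 15 nt. Per the submitters' processing notes, CASAVA 1.8.2, STAR and bedtools were used; any further step is not given in the sources used here. Positions were annotated on GENCODE M21 with Python 3.11.15, with 3′ UTRs taking precedence over coding sequence, then 5′ UTRs, exons of noncoding transcripts and last introns, and with UTR and coding classes from protein-coding transcripts only. For members, their own transcripts were used. A site was linked to crosslinks within 20 nt of its start. Sequence came from spliced transcripts, so introns have none. Intervals used SciPy 1.17.1. All 200 planted positions were recovered as exonic or intronic, and in exons as coding or not. The check did not tell 3′ from 5′ UTRs, and intronic ones were checked only on the transcript they were drawn from. All 200 planted matches were recovered in simulated sequences. Abundant RNAs are favoured, because a position needs reads in at least 2 libraries. Named genes are all members with a position; sequences are shown for exonic positions in 3 or more libraries outside the clusters and, chosen after values were seen, beside other matches and words. List genes are up to 3 with most positions. Members, lists and partner genes were chosen with earlier results of these data known. Alternatives changed merging, recurrence, transcripts, class order, overlapping genes, Cdh2, link distance, window and match type.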

Additional observations from a re-analysis of the deposited data

How the results depend on the processing

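Of 50 alternative values, 40 stayed within their interval or within 1.5 times the count reported. Requiring 3 or more libraries left 9 positions, 33.3% of them intronic (3 of 9, 7.49 to 70.1) and 66.7% in 3′ UTRs (29.9 to 92.5), 0 in Cdh2, 2 in shared protocadherin exons and 0 miR-216 sites, and 66.7% of the 6 exonic positions then had a 7mer. The intronic majority of the family thus rests on positions in 2 libraries. At the same cut, 223 of the 3589 other positions were intronic, so intronic positions were also few among recurrent positions of the rest of the table. Without Cdh2, 2 miR-216 sites remained and the intronic share was 50.7% (38.7 to 62.6). Linking within 10 nt left 3 miR-216 sites. With 8mers only, 24.3% of exonic positions had a match. Merging positions within 5 nt merged none. No paired analysis was possible because both tables merge the Argonaute libraries; leaving out each library in turn could not be done either. The depth of each position is unknown.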

Other observations

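Other adhesion families were read beside the cadherins. Of 18 genes, 13 had positions, where 22.1% of all protein-coding genes did. Of their 60 positions, 28 were in introns and 26 in 3′ UTRs, where 17.9% and 52.1% of the whole table were. Ncam1, an immunoglobulin adhesion protein, had 31 (17 intronic, 10 in the 3′ UTR) and Itgb1, the beta-1 integrin, had 9, of which 8 were in the 3′ UTR. Cntn1, Dscam and Nectin3 had 3 each; they are tied, and those of Cntn1 were all in the 3′ UTR while those of Dscam were all intronic. Cntn1 and L1cam each had a miR-216 site, where 2.92% of all positions in the table were linked to one. Of the proteases that cut cadherins, Adam17 had 3 positions, all in the 3′ UTR, and Adam10 had 1, also in the 3′ UTR, and neither had a miR-216 site.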
